A study of Rattus norvegicus with 12 samples.

Results

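The proteasome is the large protease that breaks down proteins tagged with ubiquitin, and its subunit genes were described here in the dorsal striatum of rats with a dopamine lesion. The members were all genes whose array name, with case and a predicted suffix ignored, began with Psma, Psmb, Psmc, Psmd, Psme or Psmf and a digit, without the immunoproteasome subunits Psmb8 and Psmb9. The rule gave 40 of the 35608 distinct gene names on the array, and all 40 were among the 20473 that passed the filter on dim probes and were tested. Counts and shares of all genes below are of such names, which need not each be a separate gene. Of the 40 members, 38 encode known subunits, assembly factors or activators of the proteasome, and the other 2 matched the rule by name alone. Psma8, Psmb11, Psmd14 and Psmf1 were not named on the array and were not analysed here.

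Expression was measured in 12 male rats in 4 groups of 3, with 1 single-colour Agilent array per rat. Every rat had received 9 µg of 6-hydroxydopamine (6-OHDA), which kills dopamine neurons, in the left substantia nigra, so no unlesioned tissue was compared. The tissue was punched from the dorsal striatum and pooled within each rat. The 6-OHDA group had the lesion alone. In the HFS group an electrode had been implanted in the subthalamic nucleus on the side of the lesion, and the lesioned rats were stimulated at a frequency of 130 Hz (pulse width 80 µs, current 60 µA) during 5 days. The DOPA group received L-DOPA, the precursor of dopamine, at 25 mg/kg with 12.5 mg/kg of benserazide, in 2 injections per day for 19 days. The DOPA/HFS group was implanted as well and received the same L-DOPA course, with stimulation during its last 5 days. Implantation and stimulation cannot be told apart in these groups. The strain and age of the rats were not given in the sources used here.

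The proteasome consists of a hollow catalytic core, called the 20S particle, and of caps that bind to its ends. The core is built from outer alpha rings, which gate the entrance, and inner beta rings, some of whose subunits cut the protein chain. The 19S cap recognises ubiquitin chains, unfolds the substrate with a ring of ATPases and threads it into the core, and other activators open the gate without ubiquitin. Neurons depend on this pathway for the turnover of synaptic and misfolded proteins, and several genes of inherited parkinsonism act in the ubiquitin system.

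Signals are given as quantile normalized log2 intensities, so that a difference of 1 is a doubling. All 40 members were well above background on all 12 arrays, and 33 of them were measured by a single probe. A single spot of theirs was saturated, that of Psmd1 on DOPA/HFS 3. For the others the brightest probe stood for the gene. The 12 genes tested among the markers of striatal projection neurons were all well above background on every array as well. Every slide held all 4 groups, with 1 array from each, and slides are numbered like the replicates. Because each group had its own place on every slide, place and treatment cannot be told apart. DOPA/HFS 3 stood apart technically, with 4175 outlier spots against 2 to 25 on the other arrays. Those spots were left out. All p-values measure the spread between arrays, each from 1 rat, and in bulk tissue fewer cells of a type and less RNA per cell cannot be told apart.

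To see the members together, each was set to its mean over the 12 arrays, and the median deviation of the 40 members was taken on every array. It was -0.04, -0.07 and -0.02 on the 6-OHDA arrays 1, 2 and 3. On the HFS arrays it was 0.08, -0.02 and -0.03. For DOPA it was 0.06, -0.01 and 0.00096, and for DOPA/HFS it was 0.02, 0.06 and -0.01. HFS 1 was the highest and 6-OHDA 2 the lowest. The 6-OHDA arrays overlapped with those of HFS and lay below all 3 arrays of DOPA and of DOPA/HFS in these values, by less than 0.01 on the log2 scale, although other scalings turned the sign of the members' median difference in DOPA/HFS, as given below. The median over all genes with 12 values ran from -0.06 on DOPA/HFS 3 to 0.03 on HFS 1.

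**Figure D1:**
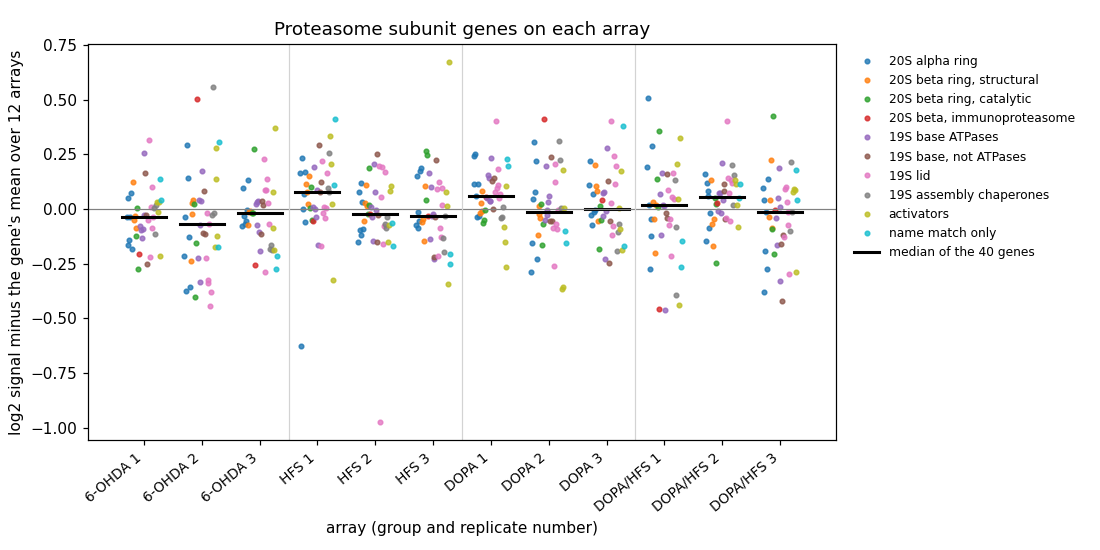
Log2 signal of each of the 40 genes minus its own mean over 12 arrays (vertical axis), for each array (horizontal axis), coloured by role; black bars are the medians of the 40 genes, which lay between -0.07 and 0.08. The lowest point is Psmd6 on HFS 2 and the highest is Psme4 on HFS 3.

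The median within-group SD of the members was 0.16 on the log2 scale, against 0.27 over the 18362 genes with 12 values and 0.20 over the 2849 genes within the middle 50% of the members' mean signal. Psmb2, a structural core subunit, had the lowest SD among members at 0.05, and the lid subunit Psmd6 had the highest at 0.41. The standard error of a member's log2 fold change, from the spread shared by the 4 groups, was 0.11 to 0.30 for 3 arrays against 3.

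Calls required a fold change over 1.2 or under 0.8 and a p under 0.1 after Benjamini-Hochberg adjustment over all genes tested. Against 6-OHDA, limma called 0 of the 40 members in HFS (0% of all genes tested were called), and 0 members had an unadjusted p under 0.05 (2.35% of all genes). The same fit called 0 members in DOPA (0.00488% of all genes, which is 1 gene), with 0 members at an unadjusted p under 0.05 (2.60% of all genes). In DOPA/HFS limma called 0 members (0% of all genes), with 0 at an unadjusted p under 0.05 (2.75% of all genes). No member was therefore shown to differ from the lesion alone under any of the 3 treatments.

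With 6 arrays against 6, the main effect of HFS had 0 members called by limma (0% of all genes) and 0 at an unadjusted p under 0.05 (4.35% of all genes). For the main effect of L-DOPA limma called 0 members (0.00488% of all genes), with 0 at an unadjusted p under 0.05 (2.73% of all genes). The interaction, which asks whether HFS acts differently when L-DOPA is given, had 0 members called by limma (0% of all genes) and 0 at an unadjusted p under 0.05 (1.99% of all genes). In this fit, which has no term for the slide, the lowest unadjusted p of any member in the 6 comparisons was 0.0551, for the ATPase subunit Psmc6 in the HFS main effect (log2 fold change -0.27 (95% interval -0.54 to 0.01); limma adjusted p = 0.910). The other probe of Psmc6 gave 0.03 for this effect, so the value holds for 1 of its 2 probes and no direction is given for the gene. With the slide as a block in the fit, 0 members were called in the HFS main effect. There 2 members, Psma7 and Psme1, had an unadjusted limma p under 0.05 (6.97% of all genes).

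These results do not show that the members stayed the same. In each of the 3 comparisons with 6-OHDA the 95% interval of all 40 members lay within a 2-fold change in either direction. It lay within 1.5-fold for 33 members in HFS, for 33 in DOPA and for 31 in DOPA/HFS. For the main effects the intervals were narrower, and 39 of 40 lay within 1.5-fold for HFS and for L-DOPA alike. The interaction was measured less closely, with 39 members within 2-fold and 17 within 1.5-fold.

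Ranges in brackets after fold changes and their medians are the lowest and highest values when each array of the comparison was left out in turn, a check chosen after seeing the data. The median log2 fold change of the 40 members was 0.07 (0.05 to 0.09) in HFS, with 27 members above 0, against a median of 0.0089 over all genes tested. Scaling by the 75th percentile turned the members' median to -0.02, with 18 above 0. Relative to all genes it was 0.00042 there, against 0.06 in the values used throughout. In DOPA the members' median was 0.08 (0.06 to 0.10), with 31 members above 0, against -0.01 over all genes, and it kept its sign under every scaling tried. In DOPA/HFS it was 0.02 (0.01 to 0.08), with 23 members above 0, against -0.01 over all genes. This sign turned with the scaling, to -0.0071 by the 75th percentile, -0.04 in the deposited log2 table and -0.03 with outlier spots kept. The last 2 settings moved the median of all genes in DOPA/HFS to -0.12 and -0.14. Relative to that shift the members' median was 0.07 in the deposited table and 0.11 with outlier spots kept, against 0.03 in the values used throughout. Without DOPA/HFS 3 the members' median in that comparison was 0.08.

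Within slides, the median difference of the members between HFS and 6-OHDA was 0.12, 0.07 and 0.03 on slides 1, 2 and 3. For DOPA it was 0.09, 0.06 and 0.05, and for DOPA/HFS 0.05, 0.06 and 0.01. The same medians over all genes ran from -0.05 to 0.02. The 9 values share 3 6-OHDA arrays, on each of which the members' median deviation was below 0, so they are not separate observations. The within-group SD of the members' median over arrays was 0.04. The median of the main effect was 0.03 for HFS, a sign that turned to -0.02 both by the 75th percentile and in the deposited table and to -0.0018 with outlier spots kept, and 0.03 for L-DOPA, which turned to -0.01 in the deposited table and with outlier spots kept. In the deposited table and with outlier spots kept the median over all genes was -0.05 and -0.05 for HFS and -0.06 and -0.07 for L-DOPA. Relative to these the members' median was 0.03 and 0.05 for HFS and 0.05 and 0.06 for L-DOPA. By the 75th percentile the members' median relative to all genes was -0.0027 for the HFS main effect and 0.06 for that of L-DOPA. The excess over all genes in the HFS main effect was thus absent under that scaling. The median interaction was -0.09, with 11 members above 0, against -0.01 over all genes. It was -0.02 with 17 above 0 by the 75th percentile, -0.14 with 7 above 0 in the deposited table (-0.10 over all genes) and -0.17 with 4 above 0 with outlier spots kept (-0.13 over all genes).

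Members were also counted whose 3 treated arrays all lay above or all below the 3 6-OHDA arrays. In HFS 2 members lay above (2.91% of the 18362 genes with 12 values did so) and 0 below (2.23%). In DOPA 2 members lay above (3.13%) and 1 below (3.06%). In DOPA/HFS 5 members lay above (1.75%) and 0 below (2.45%). As shares, these are 5% and 0% of the members in HFS, 5% and 2.5% in DOPA and 12.5% and 0% in DOPA/HFS. The 5 members of DOPA/HFS became 3 by the 75th percentile (7.5%, against 1.74% of all genes), 1 in the deposited log2 table (2.5%, against 0.234%) and 1 with outlier spots kept (2.5%, against 0.698%). Without DOPA/HFS 3, when 2 arrays were set against 3, they were 9 (22.5%, against 6.67%). With 3 arrays against 3, an exact two-sided permutation test cannot go below p = 0.1. Members whose groups of 3 do not overlap have that value by construction, so it adds nothing to these counts.

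The alpha ring, whose subunits shape the gate of the core and anchor the caps, had 7 genes named on the array, and all 7 were tested. Psma3 encodes an alpha subunit with a long acidic tail, and its log2 signal was 12.44, 12.24 and 12.58 (6-OHDA), 12.84, 12.51 and 12.60 (HFS), 12.86, 12.66 and 12.58 (DOPA) and 12.63, 12.73 and 12.65 (DOPA/HFS). The 6-OHDA arrays were the lowest as a group, with 6-OHDA 2 below all others, but HFS 2 lay below 6-OHDA 3. All DOPA arrays lay above the 6-OHDA arrays, although DOPA 3 and 6-OHDA 3 were equal to 2 decimals. The log2 fold changes were 0.23 (95% interval -0.09 to 0.56; range 0.14 to 0.31) with HFS, 0.28 (95% interval -0.04 to 0.60; range 0.19 to 0.36) with DOPA and 0.25 (95% interval -0.08 to 0.57; range 0.16 to 0.33) with both. Without 6-OHDA 2 the first and last were 0.14 and 0.16, and without HFS 1 the first was 0.14.

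For Psma7, another alpha subunit, the log2 signal was 13.98, 13.80 and 14.29 (6-OHDA), 14.33, 14.07 and 14.35 (HFS), 14.13, 13.93 and 14.16 (DOPA) and 14.45, 14.14 and 14.30 (DOPA/HFS). 6-OHDA 3 lay within the range of the HFS and DOPA/HFS arrays, while the other 6-OHDA arrays were lower, so the groups overlapped. Against 6-OHDA its log2 fold changes were 0.22 (95% interval -0.14 to 0.58; range 0.11 to 0.36) with HFS, 0.05 (95% interval -0.31 to 0.41; range -0.06 to 0.18) with DOPA and 0.27 (95% interval -0.09 to 0.63; range 0.16 to 0.41) with both. The sign of Psma7 turned when an array was left out, to -0.06 with DOPA without 6-OHDA 2. Psma4 gave a log2 signal of 14.72, 15.16 and 14.79 (6-OHDA), 14.86, 14.98 and 14.78 (HFS), 14.92, 15.17 and 14.79 (DOPA) and 14.59, 14.92 and 14.67 (DOPA/HFS). Replicate 2 was the highest array within each group, and all groups overlapped. In log2, the fold changes were -0.02 (95% interval -0.38 to 0.35; range -0.10 to 0.12) with HFS, 0.07 (95% interval -0.30 to 0.44; range -0.03 to 0.20) with DOPA and -0.16 (95% interval -0.53 to 0.20; range -0.26 to -0.03) with both. The sign of Psma4 turned when an array was left out, to 0.12 with HFS without 6-OHDA 2, 0.03 with HFS without HFS 3, -0.01 with DOPA without 6-OHDA 1 and -0.03 with DOPA without DOPA 2.

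Among the remaining alpha subunits Psma1 was named because it belonged to the 5 members without overlap in DOPA/HFS, after its values were seen. The log2 signal of Psma1 was 12.90, 12.71 and 12.86 (6-OHDA), 13.10, 12.78 and 12.86 (HFS), 13.05, 12.65 and 13.04 (DOPA) and 13.12, 13.09 and 13.03 (DOPA/HFS). The DOPA/HFS arrays lay close together above all 6-OHDA arrays, while DOPA 2 was the lowest array of all. The fitted log2 fold changes were 0.09 (95% interval -0.24 to 0.42; range -0.0019 to 0.16) with HFS, 0.09 (95% interval -0.24 to 0.42; range 0.02 to 0.22) with DOPA and 0.26 (95% interval -0.07 to 0.59; range 0.20 to 0.30) with both. The sign of Psma1 turned when an array was left out, to -0.0019 with HFS without HFS 1. Psma2 differed from 6-OHDA by -0.17 (-0.31 to 0.08) with HFS, 0.06 (-0.01 to 0.19) with DOPA and -0.04 (-0.30 to 0.14) with both, and its interval in DOPA/HFS ran from -0.61 to 0.52. Psma5 had log2 fold changes of -0.05 (-0.10 to 0.01) with HFS, 0.02 (-0.01 to 0.09) with DOPA and -0.04 (-0.09 to 0.03) with both, among the smallest of the ring. Psma6 had 0.07 (0.0045 to 0.12) with HFS, 0.13 (0.07 to 0.19) with DOPA and -0.12 (-0.17 to -0.05) with both. All 3 of these subunits overlapped with the 6-OHDA arrays in every group. Over the ring the median log2 fold change was 0.07 (0.03 to 0.11) with HFS, 0.07 (0.02 to 0.12) with DOPA and -0.04 (-0.04 to 0.14) with both, with 4, 7 and 3 of 7 genes above 0. The last turned to 0.03 without 6-OHDA 2, 0.02 without DOPA/HFS 1, 0.03 without DOPA/HFS 2 and 0.14 without DOPA/HFS 3.

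The catalytic subunits of the core carry the active sites. Psmb5 holds the chymotrypsin-like site, the main target of proteasome inhibitor drugs, and its log2 signal was 13.98, 14.12 and 14.08 (6-OHDA), 14.11, 14.08 and 14.37 (HFS), 14.04, 14.12 and 13.92 (DOPA) and 14.24, 14.15 and 14.01 (DOPA/HFS). HFS 3 was the highest array and DOPA 3 the lowest, and each treated group overlapped with 6-OHDA. The log2 fold changes were 0.12 (95% interval -0.18 to 0.42; range 0.03 to 0.17) with HFS, -0.04 (95% interval -0.33 to 0.26; range -0.08 to 0.02) with DOPA and 0.07 (95% interval -0.23 to 0.37; range 0.02 to 0.13) with both. No direction is given for DOPA, where the value was 0.02 without DOPA 3. The DOPA/HFS value was -0.02 in the deposited table, where the median of all genes was -0.12.

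Psmb6 holds the caspase-like site, which cuts after acidic residues, and its log2 signal was 13.20, 12.80 and 13.18 (6-OHDA), 13.30, 13.21 and 13.24 (HFS), 13.15, 13.03 and 13.21 (DOPA) and 13.21, 13.22 and 13.62 (DOPA/HFS). 6-OHDA 2 was the lowest array and DOPA/HFS 3 the highest. All HFS and all DOPA/HFS arrays lay above the 6-OHDA arrays, by 0.01 at the closest in HFS and by less in DOPA/HFS, while the DOPA arrays overlapped. The log2 fold changes were 0.19 (95% interval -0.16 to 0.55; range 0.06 to 0.26) with HFS, 0.07 (95% interval -0.28 to 0.42; range -0.06 to 0.14) with DOPA and 0.29 (95% interval -0.06 to 0.64; range 0.15 to 0.36) with both (in DOPA/HFS limma p = 0.0986, adjusted p = 1.0; exact permutation p = 0.1). Without 6-OHDA 2 the values of Psmb6 were 0.06, -0.06 and 0.16, and without DOPA/HFS 3 the last was 0.15.

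Psmb7 holds the trypsin-like site, which cuts after basic residues, and its log2 signal was 12.44, 12.56 and 12.99 (6-OHDA), 12.66, 12.90 and 12.96 (HFS), 12.71, 12.65 and 12.66 (DOPA) and 13.07, 12.47 and 12.51 (DOPA/HFS). The 3 DOPA arrays were close together, whereas 6-OHDA 3 and DOPA/HFS 1 stood far above the other arrays of their groups, and all groups overlapped. The log2 fold changes were 0.18 (95% interval -0.25 to 0.61; range 0.07 to 0.34) with HFS, 0.01 (95% interval -0.42 to 0.44; range -0.10 to 0.17) with DOPA and 0.02 (95% interval -0.41 to 0.45; range -0.18 to 0.18) with both. The DOPA value turned to -0.10 without 6-OHDA 1, -0.04 without 6-OHDA 2 and -0.0082 without DOPA 1. The DOPA/HFS value was negative by the 75th percentile (-0.03), in the deposited table (-0.06), with outlier spots kept (-0.06), without 6-OHDA 1 (-0.09), without 6-OHDA 2 (-0.03) and without DOPA/HFS 1 (-0.18), so no direction is given. The median of all genes was -0.12 in the deposited table and -0.14 with outlier spots kept.

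Psmb10 replaces Psmb7 in the immunoproteasome, the form that immune signals induce for antigen processing. Its log2 signal was 12.71, 13.42 and 12.66 (6-OHDA), 12.86, 12.89 and 12.88 (HFS), 12.97, 13.33 and 12.96 (DOPA) and 12.46, 12.94 and 12.91 (DOPA/HFS). 6-OHDA 2 and DOPA 2 were the highest arrays and DOPA/HFS 1 the lowest, and the 3 HFS arrays nearly coincided within the range of the 6-OHDA arrays. Its log2 fold changes were -0.05 (95% interval -0.53 to 0.43; range -0.19 to 0.19) with HFS, 0.16 (95% interval -0.32 to 0.64; range 0.02 to 0.40) with DOPA and -0.16 (95% interval -0.64 to 0.32; range -0.29 to 0.09) with both. Without 6-OHDA 2 the HFS value was 0.19 and the DOPA/HFS value 0.09, so their sign rested on that array.

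**Figure D2:**
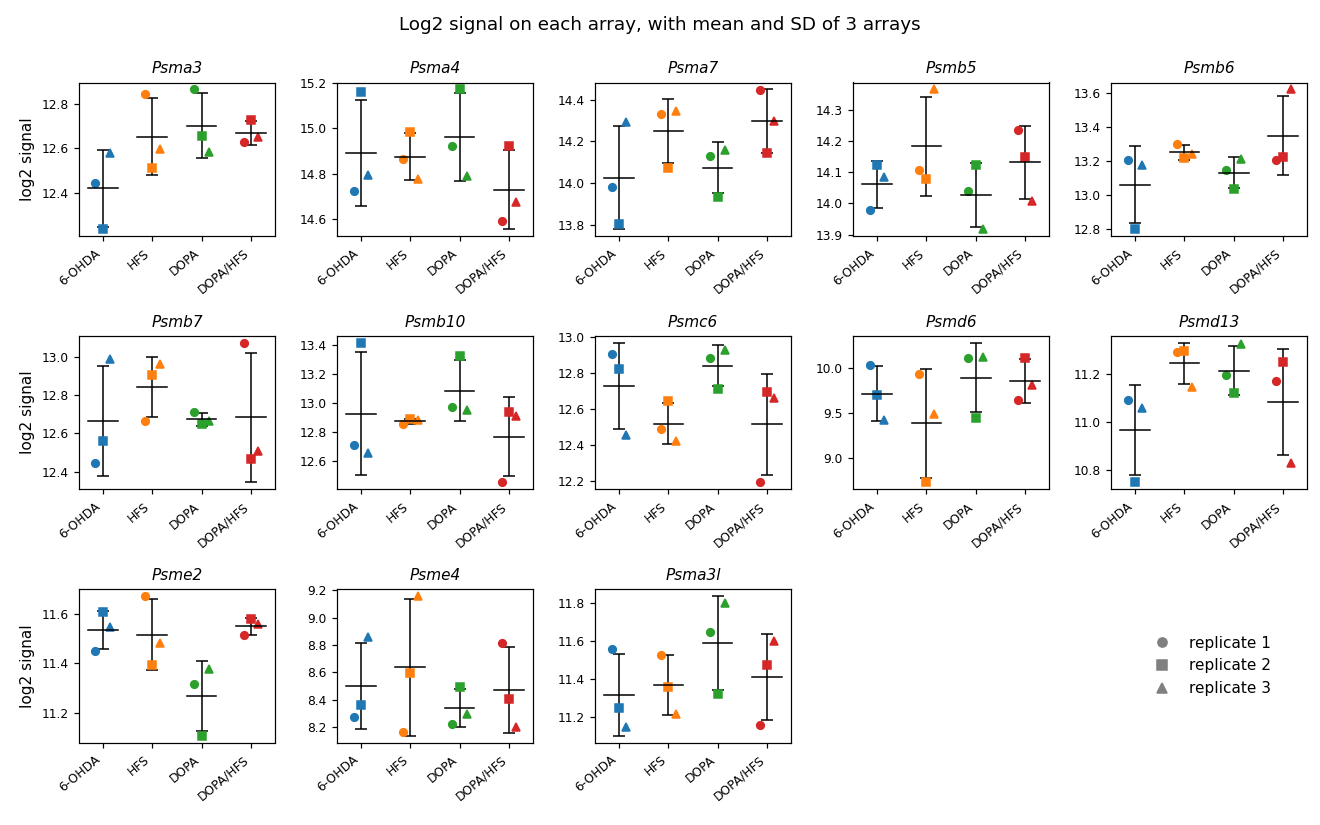
Log2 signal (vertical axis) of 13 of the 40 genes on each array, by group (horizontal axis); symbols mark the replicate number, horizontal bars the mean and whiskers the SD of 3 arrays. Most groups overlap, and the 3 DOPA arrays of Psme2 lie between 11.11 and 11.38, below all other arrays of that gene.

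The structural beta subunits line the inner rings without an active site. Psmb1 had log2 fold changes of 0.06 (-0.02 to 0.16) with HFS, 0.08 (-0.01 to 0.18) with DOPA and 0.11 (0.02 to 0.20) with both. Psmb2 had 0.05 (0.02 to 0.08) with HFS, 0.07 (0.03 to 0.09) with DOPA and 0.01 (-0.03 to 0.03) with both, with intervals that reached no further than -0.25 and 0.32. Psmb3 gave -0.00091 (-0.06 to 0.07) with HFS, 0.06 (0.05 to 0.09) with DOPA and -0.04 (-0.18 to 0.03) with both. Psmb4 gave 0.11 (0.08 to 0.15) with HFS, -0.02 (-0.05 to 0.01) with DOPA and -0.02 (-0.05 to 0.01) with both. All 4 subunits overlapped with 6-OHDA in every group, and all 4 intervals lay within 1.5-fold in each of the 3 comparisons.

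The 6 ATPases form the base of the cap, where they unfold the substrate. Psmc6 had a log2 signal of 12.91, 12.83 and 12.46 (6-OHDA), 12.49, 12.65 and 12.42 (HFS), 12.89, 12.71 and 12.93 (DOPA) and 12.19, 12.69 and 12.66 (DOPA/HFS). DOPA/HFS 1 was the lowest array and the DOPA arrays were high, while 6-OHDA 3 lay well below the other 6-OHDA arrays, so the groups overlapped. Against 6-OHDA its log2 fold changes were -0.21 (95% interval -0.60 to 0.18; range -0.35 to -0.12) with HFS, 0.11 (95% interval -0.28 to 0.50; range -0.02 to 0.20) with DOPA and -0.21 (95% interval -0.60 to 0.18; range -0.35 to -0.05) with both. The sign of Psmc6 turned when an array was left out, to -0.02 with DOPA without 6-OHDA 3. With both, the value was -0.05 without DOPA/HFS 1. Its other probe gave -0.04, -0.08 and 0.01 in the same comparisons.

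Psmc3 was named after its values were seen, as one of the 5 members without overlap in DOPA/HFS. The log2 signal was 13.94, 13.74 and 14.11 (6-OHDA), 14.08, 13.93 and 14.18 (HFS), 14.22, 14.05 and 14.16 (DOPA) and 14.24, 14.15 and 14.13 (DOPA/HFS). The DOPA/HFS arrays all lay above 6-OHDA 3, the highest 6-OHDA array, by 0.02 at the closest, and the HFS and DOPA arrays overlapped with 6-OHDA. In log2, the fold changes were 0.13 (95% interval -0.17 to 0.43; range 0.04 to 0.22) with HFS, 0.21 (95% interval -0.09 to 0.51; range 0.11 to 0.30) with DOPA and 0.24 (95% interval -0.06 to 0.54; range 0.15 to 0.33) with both. Without 6-OHDA 2 these were 0.04, 0.11 and 0.15. Psmc1 had log2 fold changes of 0.15 (0.09 to 0.21) with HFS, 0.12 (0.05 to 0.18) with DOPA and 0.10 (0.03 to 0.16) with both, and Psmc2 had 0.05 (-0.05 to 0.12) with HFS, 0.15 (0.10 to 0.22) with DOPA and -0.03 (-0.10 to 0.02) with both. For Psmc4 they were 0.09 (0.01 to 0.13) with HFS, -0.02 (-0.07 to 0.06) with DOPA and 0.11 (0.05 to 0.15) with both, and for Psmc5 0.08 (0.04 to 0.11) with HFS, 0.05 (0.01 to 0.08) with DOPA and -0.0025 (-0.13 to 0.15) with both. These 4 ATPases overlapped with 6-OHDA in every group, and 5, 5 and 3 of the 6 ATPases were above 0 in HFS, DOPA and DOPA/HFS.

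The base also holds Psmd1 and Psmd2, large scaffolds that dock ubiquitin receptors, and Psmd4, itself a receptor for ubiquitin chains. Psmd1 had log2 fold changes of -0.01 (-0.16 to 0.09) with HFS, 0.09 (0.04 to 0.18) with DOPA and -0.00061 (-0.07 to 0.09) with both. Those of Psmd2 were 0.07 (-0.01 to 0.13) with HFS, -0.03 (-0.15 to 0.09) with DOPA and -0.16 (-0.26 to -0.01) with both, and Psmd4 had 0.22 (0.15 to 0.29) with HFS, 0.12 (0.06 to 0.19) with DOPA and 0.11 (0.03 to 0.18) with both. All 3 overlapped with 6-OHDA in every group.

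The lid of the cap removes ubiquitin chains before the substrate enters the core, and 7 of its genes were named on the array. Psmd13 had a log2 signal of 11.09, 10.75 and 11.06 (6-OHDA), 11.29, 11.30 and 11.15 (HFS), 11.20, 11.12 and 11.32 (DOPA) and 11.17, 11.25 and 10.83 (DOPA/HFS). 6-OHDA 2 was the lowest array, with DOPA/HFS 3 close to it, and all HFS and DOPA arrays lay above the 6-OHDA arrays. The fitted log2 fold changes were 0.28 (95% interval -0.06 to 0.62; range 0.17 to 0.34) with HFS, 0.25 (95% interval -0.09 to 0.59; range 0.14 to 0.31) with DOPA and 0.12 (95% interval -0.22 to 0.46; range 0.01 to 0.24) with both (in HFS limma p = 0.101, adjusted p = 0.998; exact permutation p = 0.1). Without 6-OHDA 2 the values of Psmd13 were 0.17, 0.14 and 0.01, and without DOPA/HFS 3 the last was 0.24. Its interaction was -0.41 (95% interval -0.89 to 0.08; range -0.49 to -0.28), with a limma p of 0.0899 and an adjusted p of 1.0.

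The signal of Psmd6 was the most scattered, at 10.03, 9.69 and 9.42 (6-OHDA), 9.93, 8.73 and 9.49 (HFS), 10.11, 9.45 and 10.11 (DOPA) and 9.64, 10.11 and 9.80 (DOPA/HFS). HFS 2 lay far below every other array, and all groups overlapped. Its log2 fold changes were -0.33 (95% interval -0.995 to 0.34; range -0.60 to -0.0025) with HFS, 0.18 (95% interval -0.49 to 0.85; range 0.03 to 0.40) with DOPA and 0.14 (95% interval -0.53 to 0.81; range -0.01 to 0.29) with both. The HFS value rested on HFS 2, without which it was -0.0025. The sign of Psmd6 turned when an array was left out, to -0.01 with both without 6-OHDA 3.

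Of the other lid genes, Psmd7, the partner of the deubiquitinase of the lid, had log2 fold changes of 0.21 (0.12 to 0.33) with HFS, 0.18 (0.10 to 0.31) with DOPA and 0.22 (0.13 to 0.34) with both. Psmd3 had 0.05 (-0.05 to 0.18) with HFS, 0.02 (-0.08 to 0.14) with DOPA and -0.01 (-0.12 to 0.11) with both, and Psmd8 had 0.12 (-0.01 to 0.21) with HFS, 0.16 (0.03 to 0.25) with DOPA and 0.05 (-0.08 to 0.13) with both. Psmd11, which helps to join lid and core, had -0.10 (-0.14 to -0.03) with HFS, 0.13 (0.06 to 0.22) with DOPA and 0.0038 (-0.04 to 0.07) with both, and Psmd12 had 0.11 (-0.06 to 0.22) with HFS, 0.13 (-0.04 to 0.23) with DOPA and 0.18 (0.01 to 0.29) with both. These 5 genes overlapped with 6-OHDA in every group. 6-OHDA 2 was low across the lid, with 0 of 7 genes above their own mean and a median deviation of -0.32, while 6-OHDA 1 had -0.04 and 6-OHDA 3 had 0.09. The median log2 fold change of the lid was 0.11 (-0.05 to 0.18) with HFS, 0.16 (0.09 to 0.21) with DOPA and 0.12 (0.01 to 0.18) with both, with 5, 7 and 6 of 7 genes above 0, and all of these comparisons share the 6-OHDA arrays. Without 6-OHDA 2 it was -0.05, 0.10 and 0.0087, with 2, 5 and 4 of 7 genes above 0.

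Chaperones guide the assembly of the base and leave the finished cap. Psmd5 had log2 fold changes of 0.03 (-0.03 to 0.08) with HFS, 0.09 (-0.05 to 0.20) with DOPA and 0.14 (0.08 to 0.23) with both, Psmd9 of -0.16 (-0.29 to 0.07) with HFS, -0.07 (-0.19 to 0.17) with DOPA and -0.15 (-0.28 to 0.08) with both and Psmd10, also known as gankyrin, of 0.12 (0.03 to 0.17) with HFS, 0.05 (-0.02 to 0.09) with DOPA and 0.08 (0.01 to 0.13) with both. All 3 overlapped with 6-OHDA in every group. The interval of Psmd9 was the widest of the 3, from -0.65 to 0.33 in HFS.

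The activators bind the core in place of the cap. Psme1 and Psme2 together form an activator that interferon induces. Psme2 had a log2 signal of 11.45, 11.61 and 11.54 (6-OHDA), 11.67, 11.39 and 11.48 (HFS), 11.31, 11.11 and 11.38 (DOPA) and 11.51, 11.58 and 11.56 (DOPA/HFS). All 3 DOPA arrays lay below every array of the other groups, whereas the DOPA/HFS arrays lay within the range of the 6-OHDA arrays. Against 6-OHDA its log2 fold changes were -0.02 (95% interval -0.31 to 0.27; range -0.10 to 0.04) with HFS, -0.27 (95% interval -0.56 to 0.02; range -0.32 to -0.19) with DOPA and 0.02 (95% interval -0.27 to 0.31; range -0.03 to 0.05) with both (in DOPA limma p = 0.0674, adjusted p = 1.0; exact permutation p = 0.1). The sign of Psme2 turned when an array was left out, to 0.02 with HFS without 6-OHDA 2, 0.04 with HFS without HFS 2 and -0.03 with both without 6-OHDA 1. Its interaction was 0.30 (95% interval -0.11 to 0.71; range 0.22 to 0.38), with a limma p of 0.133, so it was not shown that the effect of HFS depended on L-DOPA.

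Psme1, named after its values were seen because its DOPA/HFS arrays did not overlap with 6-OHDA, had a log2 signal of 11.45, 11.24 and 11.33 (6-OHDA), 11.75, 11.26 and 11.49 (HFS), 11.33, 11.05 and 11.42 (DOPA) and 11.62, 11.55 and 11.49 (DOPA/HFS). HFS 1 was the highest array and DOPA 2 the lowest. The log2 fold changes of Psme1 were 0.16 (95% interval -0.18 to 0.51; range 0.04 to 0.28) with HFS, -0.07 (95% interval -0.42 to 0.28; range -0.15 to 0.04) with DOPA and 0.21 (95% interval -0.13 to 0.56; range 0.17 to 0.27) with both. The sign of Psme1 turned when an array was left out, to 0.04 with DOPA without DOPA 2. Psme4, an activator found mainly in the nucleus, gave 8.27, 8.36 and 8.86 (6-OHDA), 8.16, 8.59 and 9.16 (HFS), 8.22, 8.49 and 8.30 (DOPA) and 8.81, 8.41 and 8.20 (DOPA/HFS). HFS 3 was the highest array and the values of all groups overlapped. In log2, the fold changes were 0.14 (95% interval -0.44 to 0.71; range -0.12 to 0.38) with HFS, -0.16 (95% interval -0.74 to 0.41; range -0.27 to 0.02) with DOPA and -0.03 (95% interval -0.60 to 0.55; range -0.20 to 0.15) with both. The sign of Psme4 turned when an array was left out, to -0.12 with HFS without HFS 3, 0.02 with DOPA and 0.15 with both without 6-OHDA 3, 0.01 with both without DOPA/HFS 2 and 0.11 with both without DOPA/HFS 3. The DOPA value was 0.09 when both probes of the gene were averaged, so no direction is given. Psme3, a nuclear activator, had log2 fold changes of -0.12 (-0.24 to 0.01) with HFS, 0.11 (-0.0042 to 0.23) with DOPA and -0.15 (-0.27 to 0.01) with both and overlapped with 6-OHDA in every group.

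Psma3l, a gene resembling Psma3, and Psmc3ip, which encodes a protein of meiotic recombination and no proteasome subunit, were taken in by name alone. Psma3l had a log2 signal of 11.56, 11.24 and 11.15 (6-OHDA), 11.53, 11.36 and 11.21 (HFS), 11.65, 11.32 and 11.80 (DOPA) and 11.16, 11.47 and 11.60 (DOPA/HFS). DOPA 3 was the highest array and 6-OHDA 3 the lowest, and the groups overlapped. The log2 fold changes of Psma3l were 0.05 (95% interval -0.35 to 0.46; range -0.03 to 0.17) with HFS, 0.27 (95% interval -0.13 to 0.68; range 0.17 to 0.41) with DOPA and 0.09 (95% interval -0.31 to 0.50; range -0.0011 to 0.22) with both. The sign of Psma3l turned when an array was left out, to -0.03 with HFS without 6-OHDA 3, -0.03 with HFS without HFS 1 and -0.0011 with both without DOPA/HFS 3. Psmc3ip had -0.05 (-0.25 to 0.08) with HFS, -0.09 (-0.22 to 0.04) with DOPA and -0.04 (-0.17 to 0.09) with both and overlapped with 6-OHDA in every group. Without these 2 genes 0 of 38 members were called by limma in each of the 6 comparisons, 0 had an unadjusted p under 0.05, and the median log2 fold changes were 0.07 with HFS, 0.08 with DOPA and 0.02 with both.

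**Figure D3:**
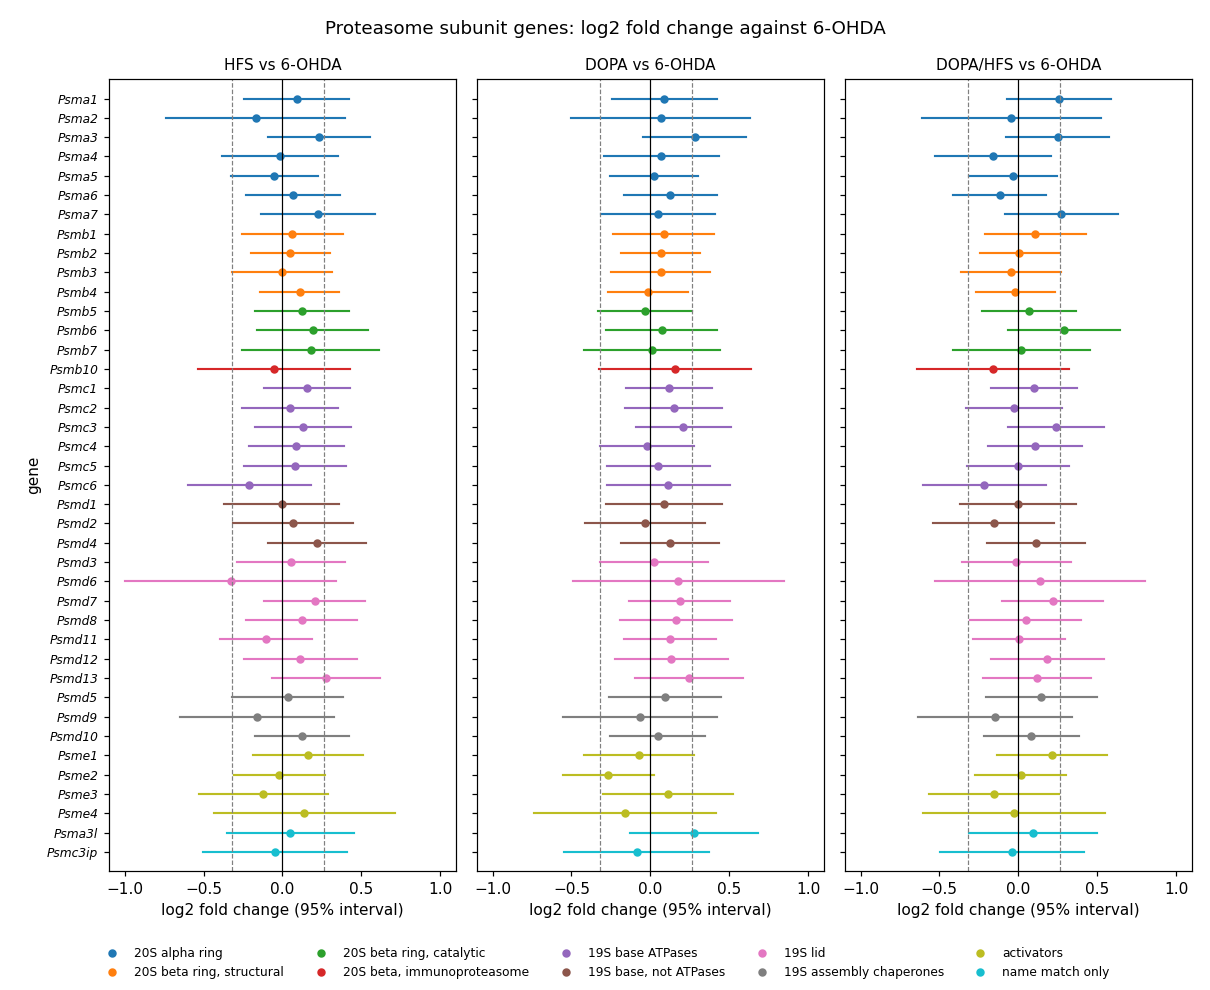
Log2 fold change (horizontal axis) of each of the 40 genes (vertical axis) in HFS, DOPA and DOPA/HFS against 6-OHDA; points are estimates from 3 arrays against 3, bars 95% intervals, dashed lines the fold limits of 1.2 and 0.8, and colours the roles. Every interval includes 0.

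Probes of the same gene did not always agree. Psmd2 is measured by 2 probes, and the dimmer one gave log2 fold changes of 0.42, 0.36 and 0.27 with HFS, with DOPA and with both, where the brightest gave 0.07, -0.03 and -0.16. For Psmd1 the dimmer probe gave 0.28, 0.07 and 0.13. The second probe of Psma6 gave 0.25, 0.15 and 0.18, so that its sign differed from the brightest in DOPA/HFS. The signs of Psme4 differed in DOPA, where its second probe gave 0.34. Psmd7 has 3 probes, and the dimmer ones gave -0.06 and 0.07 in HFS, 0.05 and 0.38 in DOPA, and -0.07 and -0.08 in DOPA/HFS. The second probe of Psmc4 gave 0.14, 0.04 and 0.11, the last from 2 DOPA/HFS arrays because the spot on DOPA/HFS 3 was an outlier. For these members the values hold for the probe and not for the transcript as a whole.

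To describe whether the members moved together, each was centred on its group means and pairs were correlated over the 12 arrays, which share 3 slides. The median Pearson r over the 780 pairs of members was 0.041 (n = 12 arrays), against 0.01 over all pairs of genes with 12 values. An r over 0.5 was found in 16.3% of the member pairs and in 16.0% of all pairs. The members as a group therefore showed about the same co-variation as genes in general. The pair of highest r was Psmb10 and Psmd9 (0.935), followed by Psma1 and Psme1 (0.933) and Psmc1 and Psmc3 (0.925). The lowest r was -0.904, for Psma6 and Psmb2. The 4 members with the highest mean r to the other members were Psma3 (0.181), Psma1 (0.157), Psmd1 (0.154) and Psme1 (0.141).

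RefSeq promoter windows of the assembly GRCr8 were found by symbol for 36 of the 40 members. The 250 bases before the start of each gene were searched on both strands for TGACNNNGC, the core of the antioxidant response element through which Nrf1 and Nrf2 are known to act on proteasome genes, and for CCAAT, the box bound by the factor NF-Y. The motifs were searched separately and their letters may overlap. TGACNNNGC was found in 7 of the 36 members (19.4%) and in 10.1% of all 33469 promoters. CCAAT was found in 18 members (50%) and in 34.0% of all promoters. The windows of the 4 members with the highest mean r are shown to let their motifs be compared, 5′ to 3′ on the strand of the gene, with either motif on either strand in capitals. Psma3 lies at chr6:95219499-95219748 on the + strand, Psma1 at chr1:177887858-177888107 on the - strand, Psmd1 at chr9:94157721-94157970 on the + strand and Psme1 at chr15:33038721-33038970 on the + strand.
Psma3: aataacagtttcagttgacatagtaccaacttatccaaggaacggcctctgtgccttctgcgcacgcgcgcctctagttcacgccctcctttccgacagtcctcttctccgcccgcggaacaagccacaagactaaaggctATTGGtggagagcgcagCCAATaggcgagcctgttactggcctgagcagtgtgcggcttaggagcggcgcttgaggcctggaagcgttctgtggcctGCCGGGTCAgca
Psma1: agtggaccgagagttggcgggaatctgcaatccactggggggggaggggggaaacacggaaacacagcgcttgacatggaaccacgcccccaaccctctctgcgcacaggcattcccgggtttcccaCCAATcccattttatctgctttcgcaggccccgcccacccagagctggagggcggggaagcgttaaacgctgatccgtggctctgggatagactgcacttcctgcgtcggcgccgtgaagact
Psmd1: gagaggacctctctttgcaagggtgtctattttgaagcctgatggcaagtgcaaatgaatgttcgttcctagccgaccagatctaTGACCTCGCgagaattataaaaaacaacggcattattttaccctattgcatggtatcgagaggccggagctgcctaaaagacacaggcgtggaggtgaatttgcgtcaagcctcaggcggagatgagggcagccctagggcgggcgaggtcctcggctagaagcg
Psme1: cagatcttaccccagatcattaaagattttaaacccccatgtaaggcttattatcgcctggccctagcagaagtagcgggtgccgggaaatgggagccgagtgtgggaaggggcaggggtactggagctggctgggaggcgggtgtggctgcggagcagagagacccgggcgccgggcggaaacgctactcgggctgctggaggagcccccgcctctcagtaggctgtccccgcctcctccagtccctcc
Psma3 held both motifs, with CCAAT on each strand, Psma1 held CCAAT alone and Psmd1 held TGACNNNGC alone. Neither motif was in the window of Psme1. A match describes the letters only, and binding was not tested.

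Markers of the choroid plexus, which is not striatal tissue, had a higher summed signal on all 3 HFS arrays than on any 6-OHDA array. Of the 9 tested, the 4 well above background on all 12 arrays were Folr1, Sostdc1, Enpp2 and Otx2. Each had an unadjusted limma p under 0.05 in HFS against 6-OHDA, though 0 were called. Their log2 fold changes were 1.77 (1.17 to 2.44) for Folr1, 5.10 (4.22 to 6.46) for Sostdc1, 0.94 (0.60 to 1.25) for Enpp2 and 1.78 (1.25 to 2.54) for Otx2. The log2 of the summed signal of all 9 was 16.56, 13.31 and 15.81 for HFS, against 11.84, 11.83 and 12.64 for 6-OHDA. For DOPA it was 11.86, 12.43 and 14.33, and for DOPA/HFS 12.49, 12.18 and 12.01. The signal of Ttr, one of these markers, was 16.30, 11.86 and 15.28 for HFS, against 6.23, 6.59 and 5.80 for 6-OHDA. Ttr and Aqp1 were well above background on 10 of 12 arrays, and Clic6, Kcnj13 and Slc4a5 on 5, so their folds are not given. HFS 1 had the highest sum of these markers and the highest median of the proteasome members (0.08), while HFS 3 had the second highest sum and a members' median of -0.03. Their part in the members' values was not tested.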

How the data were processed

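Per the file headers, the authors deposited scanner output of Agilent Feature Extraction 9.1, whose processed signal is an intensity on a linear scale with the background subtracted and no normalization between arrays. The authors also deposited a table of log2 values that their methods describe as quantile normalized; each column had a median of 7.21, its ranks followed the mean signal minus background (Spearman correlation of 0.998 on the array 6-OHDA 1), and its centring is otherwise unknown. Of 45018 spots per array 1639 were controls and were dropped, and 41012 probes remained, 10735 of them named through RefSeq (GRCr8); members kept the name in the file. Processed intensities were taken to log2, spots flagged as outliers were set aside, and arrays were quantile normalized as in the methods. Spots of a probe were averaged, a probe stayed if it was well above background on 0.4 of all arrays or more, and the brightest probe stood for a gene. A single linear model of the 4 groups was fitted in R 4.3.3, by the functions lmFit and eBayes of limma 3.58.1, in place of the SAM test of the methods, and the fits were tested on simulated data. Files were read by data.table (version 1.17.8). Figures were drawn with Python 3.11 and matplotlib 3.10.9. With 3 arrays per group, precision is set by the spread between arrays, each from 1 rat. Spots well above background made up 50.5% to 63.2% of each array.

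Values on every array are given for members called, for the 2 highest and 2 lowest log2 fold changes in each comparison with 6-OHDA, for members without overlap with 6-OHDA in 2 or more of the 3 comparisons, and for Psmb5, Psmb6, Psmb7 and Psmb10; of other lists, the gene with the largest change per list and comparison, and the most abundant marker, are named, with some values left out. Members and lists were chosen with earlier results of these data known. Ranges with 1 array left out are differences of group means. Alternatives were other scalings, background corrections, sources of values, filters, probes, arrays, blocks and call rules.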

Additional observations from a re-analysis of the deposited data

How the results depend on the processing

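No member was called under any alternative fit, scaling, filter or left-out array. A count was taken as the same within 1.5 times, and a median when it moved by less than 0.042, the within-group SD of the arrays' member medians. By this measure 141 of 144 counts of members called and 132 of 141 medians were the same. The counts of members called started from 0 in each comparison, with 0 or 1 gene called in all. They could hardly move, so their sameness says little. Named members were checked only in the comparisons they were named for, where 582 of 598 values kept their side and 16 reversed. Sign turns of these members in other comparisons are given with their values above and are not in this count. Of 138 counts of genes called 100 were the same and 38 moved. With calls by groups not overlapping and fold, genes called numbered 588 for HFS vs 6-OHDA, 701 for DOPA vs 6-OHDA and 513 for DOPA/HFS vs 6-OHDA (3.20%, 3.82% and 2.79% of the genes with 12 values), with 1 member in each (2.5%). By the 75th percentile the members' median was -0.019 in HFS, -0.021 in the HFS main effect and -0.020 in the interaction, and Psmb7 in DOPA/HFS was -0.030. In the deposited table the median was -0.043 in DOPA/HFS, -0.020 in the HFS main effect and -0.14 in the interaction; in DOPA/HFS Psmb5 was -0.023 and Psmb7 -0.060. With outlier spots kept it was -0.029 in DOPA/HFS and -0.17 in the interaction, and Psmb7 in DOPA/HFS was -0.057. With the mean of all probes Psme4 in DOPA was 0.089, and 0 genes were called in DOPA. The genes called in the L-DOPA main effect numbered 2 by normexp, 2 in the deposited table and 2 with probes well above background on all 3 arrays of a group. That filter also gave 1 gene in HFS, 1 in the HFS main effect and 1 in the interaction. Without a filter 3 genes were called in HFS and 0 in DOPA. With only the arrays compared 2 were called in DOPA, and 0 at an adjusted p under 0.05. Same-numbered arrays share a slide, and their deviations from the group means correlated at -0.287 to 0.476, over 0.1 in 10 of 18 pairs. The fit used throughout has no term for the slide and assumes no pairing of the rats. Whether the slide shifted the values was not tested. With the replicate number as a block 0 genes were called in DOPA, 1 was called in the interaction, and 0 members were called. In that blocked fit of 12 arrays the HFS main effect had an adjusted limma p of 0.697 for Psma7 (unadjusted 0.0398) and 0.712 for Psme1 (unadjusted 0.0469); these 2 members had an unadjusted p under 0.05 there, as did 6.97% of all genes. Alternatives for the counts of members without overlap were chosen after seeing the data. Members above 6-OHDA in HFS were 0 by the 75th percentile (3.06% of all genes), 1 by normexp (2.63%) and 1 in the deposited table (2.56%); in DOPA they were 1 by normexp (3.32%), 1 in the deposited table (3.20%) and 1 with outlier spots kept (3.102%), and those below were 2 by normexp (3.13%) and 2 in the deposited table (3.20%), where 1 member is 2.5%; in DOPA/HFS 3, 1 and 1 lay above by the 75th percentile, in the deposited table and with outlier spots kept (1.74%, 0.234% and 0.698% of all genes). Leaving out 1 array at a time, these counts above 6-OHDA ran from 2 to 9 in HFS, 2 to 11 in DOPA and 5 to 10 in DOPA/HFS, and below from 0 to 2 in HFS and 0 to 3 in DOPA/HFS. With 2 arrays against 3 the share over all genes rose too: the 9 in HFS (22.5% of members) stood against 11.6% of all genes, the 11 in DOPA (27.5%) against 8.27%, the 10 in DOPA/HFS (25%) against 6.39%, and below 6-OHDA the 2 in HFS (5%) against 9.20% and the 3 in DOPA/HFS (7.5%) against 8.00%. Counts of genes called lay between 0 and 2 for HFS, 0 and 13 for DOPA, 0 and 3 for DOPA/HFS, 0 and 1 for the HFS main effect and 1 and 28 for the L-DOPA main effect. The median in DOPA/HFS ran from 0.014 to 0.084. Psmb10 ran from -0.19 to 0.19 in HFS and -0.29 to 0.085 in DOPA/HFS. In DOPA Psme4 ran from -0.27 to 0.018, Psmb6 from -0.061 to 0.14, Psmb5 from -0.084 to 0.019 and Psmb7 from -0.10 to 0.17, and Psmb7 ran from -0.18 to 0.18 in DOPA/HFS. The cause of these differences was not tested. The share of spots well above background limits the dim genes and none of the members.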

Other observations

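Genes that act with the proteasome were described from 5 lists of 41 tested genes. Limma called 0 of them in each of the 6 comparisons. At an unadjusted p under 0.05 the counts were 0 (HFS), 1 (DOPA), 0 (DOPA/HFS), 3 in the HFS main effect, 1 in the L-DOPA main effect and 1 in the interaction. Values below are log2 fold changes or their medians, each with its range when 1 array was left out in turn, a check chosen after seeing the data and made on differences of group means. Of the immunoproteasome subunits left out of the members and the genes of antigen peptide transport, Psmb8 had 0.24 (0.14 to 0.31) in HFS and 0.19 (0.05 to 0.42) in DOPA/HFS. The other subunit left out, Psmb9, overlapped, with a log2 signal of 10.18, 9.90 and 9.21 (HFS) against 9.35, 10.22 and 9.75 (6-OHDA). In HFS 4 of the 6 genes of this list were above 0, with a median of 0.04. In DOPA the median of these 6 genes was -0.19 (-0.31 to -0.12), and Tapbp, which loads peptides on class I molecules, had -0.41 (-0.53 to -0.33), with a 95% interval of -0.77 to -0.06 and a limma adjusted p of 1.0.

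Of the 8 tested genes for receptors and associated enzymes of the proteasome, the ubiquitin receptor Adrm1 had -0.46 (-0.69 to -0.29) in DOPA. Among 8 genes of ubiquitin and its activation Uba1, the ubiquitin-activating enzyme, had 0.23 (0.07 to 0.45) in HFS and 0.18 (-0.22 to 0.58) in DOPA/HFS, and Nploc4 had -0.14 (-0.43 to 0.05) in DOPA. The sign of Uba1 in DOPA/HFS turned without DOPA/HFS 1, and that of Nploc4 without 6-OHDA 3. Uba1 had no value on DOPA/HFS 3, so without DOPA/HFS 1 its DOPA/HFS value came from DOPA/HFS 2 alone. Among 14 genes of ubiquitin conjugation and inherited parkinsonism Ube3a had -0.21 (-0.31 to -0.15) in DOPA/HFS. The largest value of that list in the other 5 comparisons belonged to Ube2c, which was well above background on only 10 of 12 arrays, so its folds are not given. Among 5 transcription factors of proteasome genes Nfya had 0.42 (0.04 to 0.64) with HFS, 0.22 (-0.16 to 0.43) with DOPA and 0.29 (-0.08 to 0.51) with both. These rested on 6-OHDA 2, where Nfya, well above background on 11 of 12 arrays, had a log2 signal of 5.34 against 6.41 and 6.53 on the other 6-OHDA arrays, and without it they were 0.04, -0.16 and -0.08.

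In the HFS main effect the largest values of their lists were 0.23 (0.15 to 0.34) for Psmb8, 0.20 (0.0038 to 0.40) for Uba1 and 0.25 (0.06 to 0.36) for Nfya. The L-DOPA main effect had -0.24 (-0.32 to -0.13) for Tap2, -0.36 (-0.48 to -0.28) for Adrm1, 0.06 (0.02 to 0.10) for Ufd1 and 0.06 (-0.02 to 0.12) for Nfyc. In the interaction they were 0.55 (0.45 to 0.68) for Tapbp, -0.32 (-0.47 to -0.20) for Ubqln4, -0.26 (-0.43 to -0.07) for Vcp and -0.34 (-0.56 to 0.03) for Nfya. Without 6-OHDA 2 the sign of Nfyc in the L-DOPA main effect and of Nfya in the interaction turned. None of these genes was called.

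Markers of cells and tissues were described from 10 lists of 73 tested genes. Limma called 0 of them in each comparison, and at an unadjusted p under 0.05 the counts were 12 (HFS), 2 (DOPA), 1 (DOPA/HFS), 3 in the HFS main effect, 4 in the L-DOPA main effect and 8 in the interaction. The choroid plexus accounts for 9 of the 12 in HFS, for all 3 in the HFS main effect and for 5 of the 8 in the interaction. These counts include Clic6 and Kcnj13, and in HFS Slc4a5, each well above background on only 5 of 12 arrays. Of those counted, Enpp2 alone in the HFS main effect and Sostdc1 alone in the interaction were well above background on all 12 arrays. Enpp2 had 0.55 (0.38 to 0.70) and Sostdc1 -6.29 (-7.65 to -4.79). The choroid plexus transcript Ttr, well above background on 10 of 12 arrays, is given on each HFS and 6-OHDA array in the report. The other 3 in HFS were Igfbp2 with 1.82 (1.31 to 2.40) and Igf2 with 0.96 (0.74 to 1.24) of the leptomeninges list and Tac1 with 0.37 (0.29 to 0.51) of striatal projection neurons. In HFS 5 of the 7 leptomeninges genes were above 0, while Col1a1 and Col3a1 were below 0 and overlapped with 6-OHDA. The log2 signal of Col3a1 was 7.98, 8.35 and 7.92 (HFS) against 9.27, 8.11 and 8.79 (6-OHDA). Igfbp2 and Igf2 were highest on HFS 1 and next highest on HFS 3, as was the summed choroid plexus signal. Whether these 2 genes rose with the choroid plexus was not tested. The other 3 in the interaction were Igf2 with -1.30 (-1.57 to -1.08), Mx2 with -1.31 (-1.68 to -0.93) and Bcl11b with -1.16 (-1.42 to -1.02). Over the 12 genes of striatal projection neurons the median was -0.02 (-0.11 to 0.07) with HFS, 0.08 (-0.10 to 0.18) with DOPA and -0.01 (-0.16 to 0.14) with both, with 6, 8 and 6 genes above 0. These signs turned in HFS without 6-OHDA 3 (0.06) or HFS 1 (0.07), in DOPA without 6-OHDA 2 (-0.10) and in DOPA/HFS without 6-OHDA 3 (0.14) or DOPA/HFS 2 (0.07). The genes of largest value were Pdyn and Bcl11b, of which Pdyn had 1.395 (1.31 to 1.46) in DOPA and 0.76 (0.55 to 1.14) in DOPA/HFS, and Bcl11b had 0.55 (0.42 to 0.81) in HFS. The microglial gene Itgam had 1.30 (-0.10 to 2.07) with HFS, 1.47 (0.07 to 2.24) with DOPA and 1.84 (0.44 to 2.61) with both, but its log2 signal on 6-OHDA 2 was 3.58 against 7.91 and 7.65 on the other 6-OHDA arrays. Itgam was well above background on 11 of 12 arrays, and without 6-OHDA 2 these values were -0.10, 0.07 and 0.44. Among genes of the interferon response, which is known to induce Psmb10, Psme1 and Psme2, the median was -0.12 (-0.29 to 0.28) with HFS, -0.28 (-0.35 to -0.14) with DOPA and -0.25 (-0.51 to -0.06) with both, the first turning to 0.28 without HFS 2. Mx2 of this list had 0.85 (0.47 to 1.11), 0.90 (0.52 to 1.27) and 0.44 (0.06 to 0.64), each lowest without 6-OHDA 1.

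The ependyma list had medians of 0.54 (-0.02 to 1.05) with HFS, -0.48 (-1.03 to 0.06) with DOPA and 0.10 (-0.43 to 0.59) with both, whose signs turned to -0.02 without 6-OHDA 1 in HFS, 0.06 without 6-OHDA 2 in DOPA, and -0.43 without 6-OHDA 1 and -0.07 without DOPA/HFS 1 in DOPA/HFS. For the leptomeninges they were 0.54 (0.04 to 0.66) with HFS, -0.02 (-0.19 to 0.28) with DOPA and 0.34 (-0.39 to 0.43) with both, the last turning to -0.39 without DOPA/HFS 2 and the DOPA median without 6-OHDA 1, DOPA 1 or DOPA 2. Astrocyte genes had 0.05 (-0.0035 to 0.07) with HFS, 0.09 (-0.03 to 0.15) with DOPA and 0.09 (0.06 to 0.14) with both, and oligodendrocyte genes had 0.14 (0.07 to 0.32) with HFS, -0.04 (-0.21 to 0.04) with DOPA and 0.02 (-0.16 to 0.14) with both. Signs turned for astrocytes without 6-OHDA 2 (-0.0035 in HFS and -0.03 in DOPA), and for oligodendrocytes in DOPA without 6-OHDA 3 (0.04) or DOPA 1 (0.00041) and in DOPA/HFS without 6-OHDA 1 (-0.09), 6-OHDA 2 (-0.16) or DOPA/HFS 1 (-0.15). The medians for microglia were -0.08 (-0.18 to 0.01) with HFS, 0.05 (0.01 to 0.14) with DOPA and 0.07 (0.05 to 0.14) with both, and those of the endothelium -0.04 (-0.19 to 0.05) with HFS, 0.21 (0.03 to 0.27) with DOPA and 0.16 (-0.02 to 0.19) with both. In HFS the former turned without 6-OHDA 3 (0.01) or HFS 3 (0.01), and the latter without 6-OHDA 3 (0.05) in HFS and without 6-OHDA 2 (-0.02) in DOPA/HFS. Of the 2 cortical genes Slc17a7 was well above background on only 10 of 12 arrays. The median of the 2 was 0.49, 0.39 and 0.27 in the 3 comparisons with 6-OHDA, and -0.06, -0.16 and -0.28 without 6-OHDA 2, so no direction is given.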
